A study of Mus musculus with 6 samples.

Results

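The secreted Wnt antagonists are the 8 genes *Sfrp1*, *Sfrp2*, *Frzb*, *Sfrp5*, *Dkk1*, *Dkk2*, *Dkk3* and *Wif1*, found by their symbols among the 28777 genes of the count table. They were examined in 6 bulk RNA-Seq libraries of the embryonic mouse cardiac outflow tract (OFT) at E13.5. In 3 libraries, labelled mutant, the embryos carried a germline *Notch1* null allele over a wildtype allele and were homozygous for a *Nos3* knockout allele (Notch1+/-;Nos3-/-). The other 3 libraries came from wildtype littermates on the same C57/BL6J background. Both alleles are constitutive, so they are carried by every cell of the embryo and not by the OFT alone. Each library pooled 3 OFTs, 18 in all, cut off below the conal cushions, so a level averages myocardium, endothelium, smooth muscle and cushion mesenchyme. In such bulk tissue, fewer cells of a type and less RNA per cell cannot be told apart. Total counts per library were between 34729103 and 44387490.

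The labels came with 2 uncertainties. In CPM, counts scaled to library size by TMM, *Notch1* averaged 152 under the mutant and 82.0 under the wildtype label (log2 fold change 0.89, edgeR adjusted p = 0.0313). It was thus higher under the label that carries its null allele, and the cause was not tested. *Nos3* averaged 21.5 and 42.4 CPM in the same order of labels. Groups are therefore named by their labels, and every direction below is that of the labels. *Nos3* RNA, lower under the mutant label, was not absent there, with 884, 824 and 769 counts in mutant replicates 1, 2 and 3. The origin of these reads was not tested. For 2 of the wildtype libraries the sample titles and descriptions swap the library numbers, so replicates 2 and 3 of that group carry the numbers of the titles only. Markers of myocardium, endothelium, vascular smooth muscle and mesenchyme were detected in every library.

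Wnt proteins are secreted ligands that bind Frizzled receptors together with the coreceptors Lrp5 and Lrp6 and stabilise beta-catenin. The secreted antagonists act outside the cell on either side of this contact. Sfrp proteins carry a cysteine-rich domain like that of the Frizzled receptors and bind Wnt ligands, as does Wif1 through a domain of its own kind. Dkk1 and Dkk2 instead bind Lrp5 and Lrp6 and can keep them from forming the receptor complex. Dkk3 is a divergent member of its family with no settled role in this pathway. In the developing OFT, Wnt signaling acts in the second heart field and in the cushions that form the semilunar valves.

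The 8 genes fell into a high and a low class. Levels of different genes were compared as FPKM, which is CPM divided by the summed exon length in kilobases. *Sfrp1* had 102 ± 5.30 FPKM (SD, n = 3) in the wildtype libraries and 82.5 ± 1.88 FPKM (SD, n = 3) in the mutant libraries. *Sfrp2* had 87.4 ± 57.5 and 143 ± 52.8 FPKM, and *Dkk3* 50.6 ± 29.0 and 85.4 ± 17.4 FPKM, in the same order of groups. Together these 3 genes made up between 94.6% and 97.4% of the summed FPKM of all 8 in every library. *Frzb* followed with 3.54 ± 1.20 and 4.66 ± 0.426 FPKM, then *Wif1* with 2.68 ± 0.762 and 2.21 ± 0.306 FPKM. *Dkk2* (1.58 ± 0.221 and 1.73 ± 0.323 FPKM) and *Sfrp5* (1.30 ± 0.300 and 0.775 ± 0.236 FPKM) came next. The lowest was *Dkk1*, with 0.246 ± 0.211 and 0.269 ± 0.141 FPKM. Within the high class, *Sfrp2* and *Dkk3* overlapped in both groups. *Sfrp1* lay above *Dkk3* in every wildtype library and overlapped with it in the mutant libraries. It overlapped with *Sfrp2* in the wildtype libraries and lay just below it in the mutant libraries, where its highest value was 83.6 FPKM and the lowest of *Sfrp2* 83.9 FPKM. The step from the high class to *Frzb* showed no overlap in either group, nor did the step from *Sfrp5* to *Dkk1*. *Frzb* and *Wif1* overlapped only in the wildtype libraries and *Wif1* and *Dkk2* only in the mutant libraries, and *Dkk2* and *Sfrp5* only in the wildtype libraries. On the CPM scale without gene length, *Sfrp1* stood above *Sfrp2* and *Dkk2* above *Wif1* over all 6 libraries, the reverse of their places by mean FPKM.

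**Figure D1:**
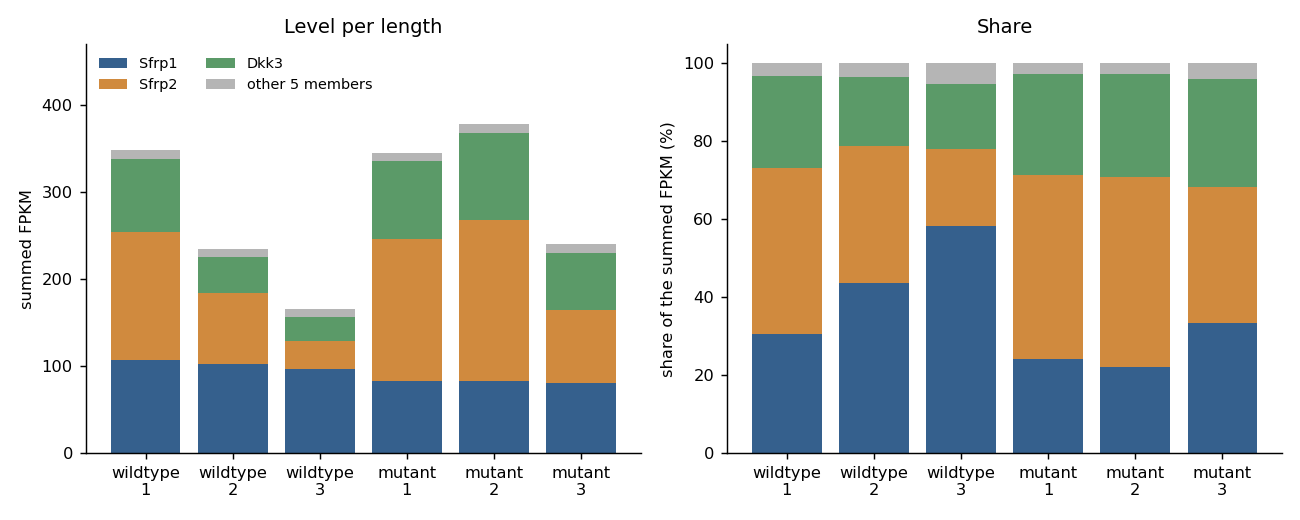
Summed FPKM of the 8 genes in each library (left, stacked bars from 0) and the share of each in that sum in percent (right), with *Sfrp1*, *Sfrp2* and *Dkk3* drawn apart from the other 5 members. The sum ranged from 165 FPKM in wildtype replicate 3 to 379 FPKM in mutant replicate 2, while the *Sfrp1* segment kept a height between 80.4 and 107 FPKM.

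The genes lie on 6 chromosomes of mm10 and are all annotated as protein coding. *Sfrp1* (ENSMUSG00000031548) lies at chr8:23411502-23449632, *Sfrp2* (ENSMUSG00000027996) at chr3:83766321-83774316, *Frzb* (ENSMUSG00000027004) at chr2:80411970-80447625 and *Sfrp5* (ENSMUSG00000018822) at chr19:42197971-42202252. *Dkk1* (ENSMUSG00000024868) lies at chr19:30545863-30549665, *Dkk2* (ENSMUSG00000028031) at chr3:132085292-132180304, *Dkk3* (ENSMUSG00000030772) at chr7:112116017-112159057 and *Wif1* (ENSMUSG00000020218) at chr10:121033960-121100650. An annotated antisense transcript, *Gm26771*, overlaps *Sfrp2* and had 71 counts over all libraries, and the methods do not say whether counting used the strand. No other annotated gene overlaps a member.

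RefSeq promoter windows (GRCm38.p6, 250 bases before the annotated start, read along the gene) were at hand for 6 of the 8 genes. They were searched on both strands for CTTTGA and CTTTGT, a core recognised by the Tcf and Lef factors of Wnt signaling, and for TGGGAA, a core recognised by Rbpj, the DNA-binding partner of Notch. A Tcf/Lef core stood in 3 of the 6 windows, those of *Dkk1*, *Dkk2* and *Frzb*, against 27.7% of 26994 genes, and an Rbpj core in 1, that of *Frzb*, against 21.5%. No match overlapped another. The windows of *Dkk1*, *Frzb*, *Dkk2* and *Sfrp2* are shown because these genes had their lowest level in the same library, wildtype replicate 3, and the last of them holds no match. *Dkk3* was also lowest there but had no window at hand, and the windows of *Sfrp5* and *Wif1*, not shown, hold no match either. A link between matches and levels was not tested. Capitals mark the matches, which are letters in a window and not shown to be sites.
Dkk1, chr19:30549497-30549746, minus strand: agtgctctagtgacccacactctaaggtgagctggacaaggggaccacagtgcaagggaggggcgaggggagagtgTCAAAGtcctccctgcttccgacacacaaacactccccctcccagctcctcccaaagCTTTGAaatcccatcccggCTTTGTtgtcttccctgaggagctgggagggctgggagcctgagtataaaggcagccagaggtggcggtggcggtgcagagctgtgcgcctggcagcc
Frzb, chr2:80447397-80447646, minus strand: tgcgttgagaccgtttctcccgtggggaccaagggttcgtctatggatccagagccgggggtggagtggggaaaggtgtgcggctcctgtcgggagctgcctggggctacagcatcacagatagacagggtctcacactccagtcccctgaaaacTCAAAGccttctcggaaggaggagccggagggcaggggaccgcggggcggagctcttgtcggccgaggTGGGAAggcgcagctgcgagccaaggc
Dkk2, chr3:132085042-132085291, plus strand: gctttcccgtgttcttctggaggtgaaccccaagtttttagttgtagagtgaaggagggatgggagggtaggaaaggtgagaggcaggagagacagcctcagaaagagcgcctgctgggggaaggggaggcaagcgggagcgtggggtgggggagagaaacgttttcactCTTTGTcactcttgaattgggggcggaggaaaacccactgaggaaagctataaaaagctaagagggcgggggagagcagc
Sfrp2, chr3:83766071-83766320, plus strand: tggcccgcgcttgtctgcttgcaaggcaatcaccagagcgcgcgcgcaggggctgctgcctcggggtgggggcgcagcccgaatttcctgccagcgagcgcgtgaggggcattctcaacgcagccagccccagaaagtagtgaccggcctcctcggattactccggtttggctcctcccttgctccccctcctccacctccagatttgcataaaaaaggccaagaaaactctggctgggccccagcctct
The *Dkk1* window holds its 3 Tcf/Lef cores 174, 117 and 98 bases before the start. That of *Frzb* holds 1 Tcf/Lef core 95 bases and 1 Rbpj core 27 bases before the start, and that of *Dkk2* 1 Tcf/Lef core 80 bases before it. For *Frzb* and *Dkk1* the RefSeq start lies inside the gene as placed above from GENCODE, so that 229 and 169 of the 250 window bases fall within that gene. Both matches of *Frzb* and 2 of the 3 of *Dkk1* lie wholly in this stretch.

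Whether the antagonists differ between mutant and wildtype OFT was tested in a fit of all 28157 genes with more than 5 reads, in which all 8 were tested. With edgeR (quasi-likelihood, Benjamini-Hochberg over all genes, threshold 0.05) 0 of 8 were called, against 0.0213% of all genes tested, of which 0.0178% were higher and 0.00355% lower under the mutant label. An unadjusted p under 0.05 was found for 3 of them, *Sfrp1*, *Sfrp5* and *Dkk3*, against 16.1% of all genes. By DESeq2's Wald test, the study's tool, 1 was called, *Sfrp1* (adjusted p = 0.0401), against 2.64% of all genes. Of the 8 log2 fold changes, 5 were above 0 and 3 below, with a median of 0.11, and the median over all genes tested was 0.011. Mutant and wildtype values were fully separate for *Sfrp1*, 1 of 8, against 19.6% of all genes, and 8.94% in its direction.

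**Figure D2:**
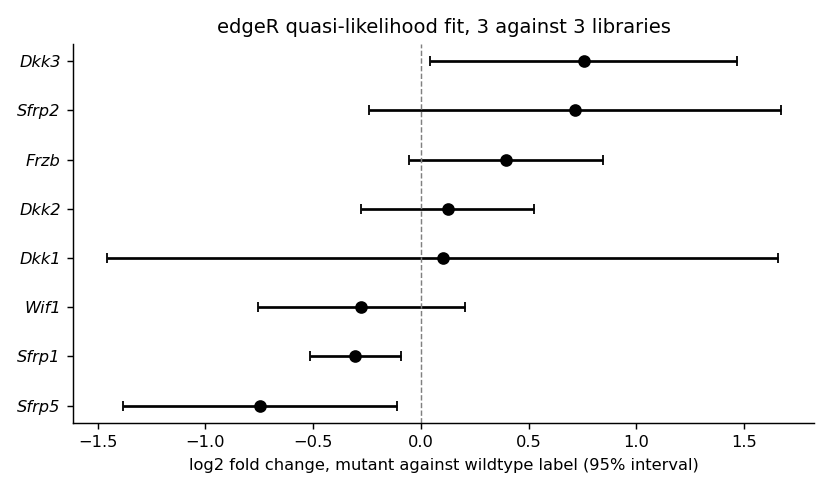
Log2 fold change of each gene under the mutant label relative to the wildtype label (x axis), from edgeR's fit of 3 against 3 libraries, with bars for the 95% interval. The intervals of *Dkk3*, *Sfrp1* and *Sfrp5* leave out 0 before adjustment, and that of *Dkk1* spans from −1.46 to 1.66.

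*Sfrp1*, the most even of the antagonists, had 468, 448 and 422 CPM in wildtype replicates 1, 2 and 3 and 366, 366 and 351 CPM in mutant replicates 1, 2 and 3. Every mutant library lay below every wildtype library, and the values within a group were close together. Its mean was 361 ± 8.21 CPM (SD, n = 3) in the mutant and 446 ± 23.2 CPM (SD, n = 3) in the wildtype libraries. The log2 fold change was −0.31 (standard error 0.096, 95% interval from −0.52 to −0.094, edgeR adjusted p = 0.213). A two-sided exact permutation test gave p = 0.1, the smallest that 3 libraries against 3 allow. Of the 16655 genes averaging 1 CPM or more, 82.5% had a wider range over the wildtype libraries and 93.6% a wider range over the mutant libraries.

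*Sfrp2*, an Sfrp protein known from mesenchymal cells, had the widest range of the 3 abundant antagonists. It had 317, 176 and 70.7 CPM in wildtype replicates 1, 2 and 3 and 349, 397 and 181 CPM in mutant replicates 1, 2 and 3. Wildtype replicate 1 lay near the upper mutant libraries and mutant replicate 3 beside wildtype replicate 2, so the groups overlapped. The highest wildtype library had 4.49 times the level of the lowest, a range exceeded by 0.168% of genes averaging 1 CPM or more, and within the mutant group the ratio was 2.20. The log2 fold change was 0.71 (standard error 0.43, 95% interval from −0.24 to 1.67, edgeR adjusted p = 0.435). The two-sided exact permutation test gave p = 0.2.

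*Frzb*, also named Sfrp3, had 15.9, 9.78 and 8.66 CPM in wildtype replicates 1, 2 and 3, and 14.4, 16.7 and 14.2 CPM in mutant replicates 1, 2 and 3. The mutant libraries were close together, and wildtype replicate 1 lay among them. Its log2 fold change was 0.39 (standard error 0.20, 95% interval from −0.057 to 0.84, edgeR adjusted p = 0.365), with p = 0.3 in the two-sided exact permutation test. With wildtype replicate 1 omitted, a fit that called 9.45% of all genes tested, *Frzb* had a log2 fold change of 0.71, past the threshold (edgeR adjusted p = 0.0212). It was 0.23 with wildtype replicate 3 omitted (edgeR adjusted p = 0.695) and 0.29 with wildtype replicate 2 omitted (edgeR adjusted p = 0.618).

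*Sfrp5*, an Sfrp protein of early foregut and heart precursors, was rare, with 81, 119 and 89 counts in wildtype replicates 1, 2 and 3 and 47, 47 and 75 counts in mutant replicates 1, 2 and 3. In CPM these were 1.82, 2.87 and 2.74 against 1.17, 1.25 and 1.99, and mutant replicate 3 lay above wildtype replicate 1. Its log2 fold change, −0.75, was the lowest of the 8 (standard error 0.29, 95% interval from −1.38 to −0.11, edgeR adjusted p = 0.262). The two-sided exact permutation test gave p = 0.2.

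Among the Dickkopf genes, *Dkk3* had 279, 139 and 91.6 CPM in wildtype replicates 1, 2 and 3 and 301, 337 and 223 CPM in mutant replicates 1, 2 and 3. Wildtype replicate 1 lay within the mutant range and the other wildtype libraries below it. *Dkk3* had the highest log2 fold change of the 8, 0.75 (standard error 0.32, 95% interval from 0.043 to 1.47, edgeR adjusted p = 0.292). The two-sided exact permutation test gave p = 0.2. Its range over the wildtype libraries was exceeded by 0.793% of genes averaging 1 CPM or more. Without wildtype replicate 1, a fit that called 9.45% of all genes tested, the log2 fold change of *Dkk3* was 1.31, past the threshold (edgeR adjusted p = 0.0182). Without wildtype replicate 3 it was 0.46 (edgeR adjusted p = 0.557).

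*Dkk1*, an Lrp5 and Lrp6 inhibitor that beta-catenin itself can induce, had 48, 27 and 2 counts in wildtype replicates 1, 2 and 3 and 39, 26 and 11 counts in mutant replicates 1, 2 and 3. The count in wildtype replicate 3 is under the floor of 3 counts taken here as not detected. The groups overlapped fully. Its log2 fold change was 0.10 with the widest interval of the 8 (standard error 0.70, 95% interval from −1.46 to 1.66, edgeR adjusted p = 0.961), so a difference of 2-fold in either direction was not detectable at this depth and spread. Without wildtype replicate 3 the log2 fold change was −0.40 and without mutant replicate 1 it was −0.30.

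*Dkk2*, the other Lrp5 and Lrp6 ligand, had 6.25, 6.43 and 4.93 CPM in wildtype replicates 1, 2 and 3, and 5.97, 7.76 and 5.49 CPM in mutant replicates 1, 2 and 3. The groups overlapped, with a log2 fold change of 0.12 (standard error 0.18, 95% interval from −0.28 to 0.52, edgeR adjusted p = 0.784).

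*Wif1*, the Wnt-binding inhibitor outside both families, had 6.79, 4.53 and 8.20 CPM in wildtype replicates 1, 2 and 3, and 4.82, 5.04 and 6.21 CPM in mutant replicates 1, 2 and 3. The mutant values lay inside the wildtype range. Its log2 fold change was −0.28 (standard error 0.22, 95% interval from −0.76 to 0.20, edgeR adjusted p = 0.559). For *Dkk1*, *Dkk2* and *Wif1* the two-sided exact permutation test gave p = 0.8, 0.6 and 0.5.

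**Figure D3:**
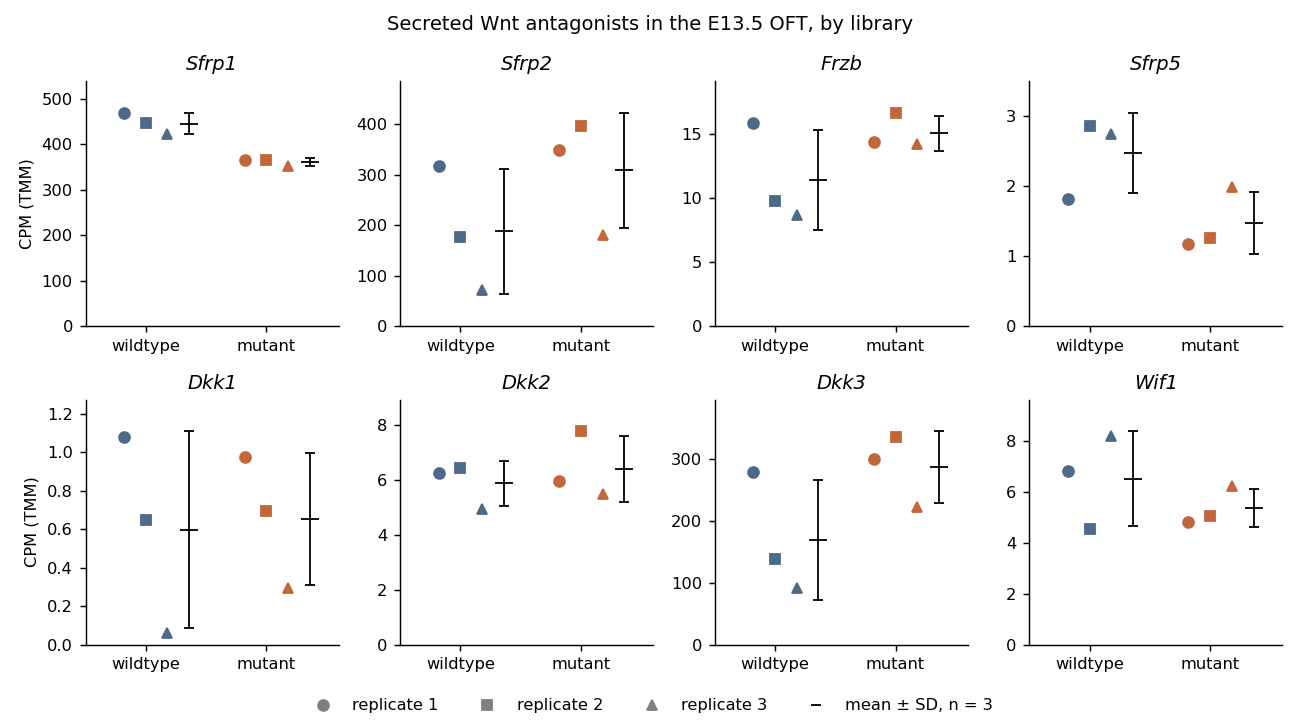
CPM of each gene (y axes from 0, each on its own scale) in the 3 wildtype and 3 mutant libraries, with the mean ± SD (n = 3) beside each group. *Sfrp1* is the gene whose groups do not overlap, and *Sfrp2*, *Dkk3* and *Dkk1* are lowest in wildtype replicate 3.

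The antagonists did not vary together as a family. *Sfrp2*, *Frzb*, *Dkk1*, *Dkk2* and *Dkk3* had their lowest level in wildtype replicate 3, where *Wif1* had its highest and *Sfrp5* its second highest. *Sfrp2* and *Dkk3* placed the 6 libraries in the same order, with mutant replicate 2 first, then mutant replicate 1, wildtype replicate 1, mutant replicate 3, wildtype replicate 2 and wildtype replicate 3. A list of 8 mesenchymal markers, all detected in every library, placed the libraries in that order too. Its summed level was 7983, 5384 and 4081 CPM in wildtype replicates 1, 2 and 3 and 8692, 9479 and 7394 CPM in mutant replicates 1, 2 and 3. The 10 myocardial markers, also all detected in every library, summed to 20436, 22705 and 29231 CPM in wildtype replicates 1, 2 and 3. Under the mutant label they summed to 17372, 14939 and 19928 CPM, each below the wildtype libraries. The 5 neuronal markers with a count in every library summed to 21.8, 22.1 and 11.1 CPM in wildtype replicates 1, 2 and 3 and to 31.7, 33.5 and 25.5 CPM in mutant replicates 1, 2 and 3, with every mutant library higher and wildtype replicate 3 lowest. The part of the neuronal list in the values of the antagonists was not tested.

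**Figure D4:**
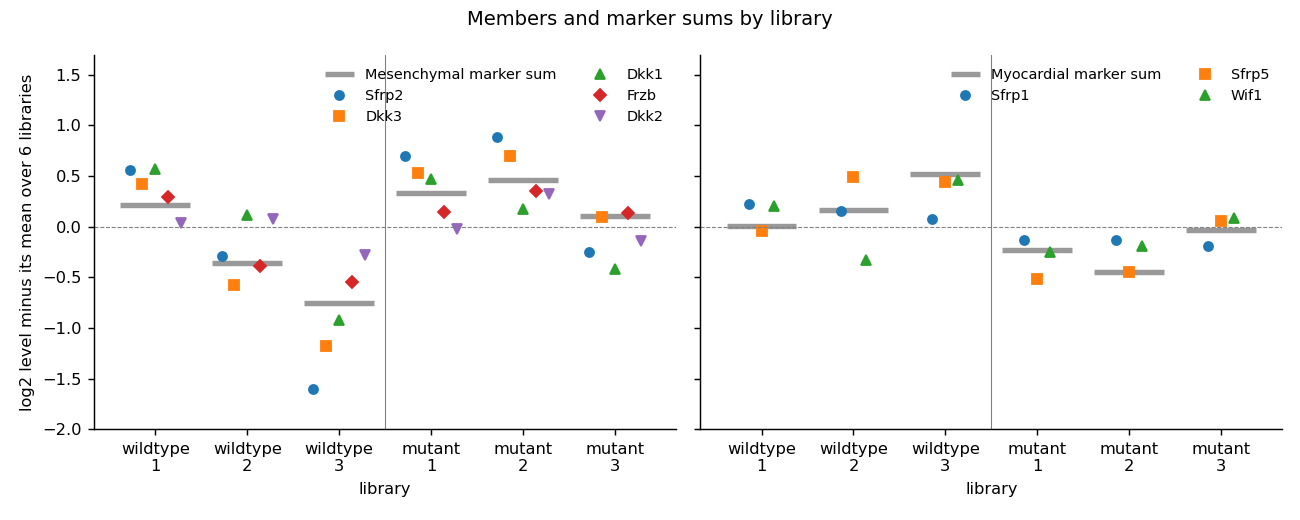
Log2 level of each gene in each library minus its mean over the 6 libraries, from CPM plus 0.5 (points), with the summed CPM of the mesenchymal (left) or myocardial (right) marker list centred the same way (grey bars). *Sfrp2* and *Dkk3* place the libraries in the order of the mesenchymal sum over a wider range, and *Sfrp1* lies between −0.19 and 0.22 of its mean.

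When the mean of the mesenchymal markers entered the fit as a covariate, a setting chosen after the data were seen, the log2 fold change of *Dkk3* was −0.069, of *Sfrp2* −0.43 and of *Frzb* −0.062. That of *Sfrp1* was −0.39 in the same fit. With the mean of the myocardial markers as covariate the values were 0.14 for *Dkk3*, −0.26 for *Sfrp2*, 0.094 for *Frzb* and −0.37 for *Sfrp1*. *Sfrp5* was −0.27 with the mesenchymal and −0.38 with the myocardial covariate. The smallest edgeR adjusted p of the 8 genes in these fits was 0.327, that of *Sfrp1* with the mesenchymal covariate. Thus the sign for *Sfrp1* and *Sfrp5* was kept with either covariate. For *Dkk3* and *Frzb* it was kept with the myocardial one only, and for *Sfrp2* with neither. No value passed the threshold, so a kept or changed sign does not show that a difference was kept or lost. The covariates were means of log2 CPM over each list, not sums, and their own separation by label was not tested. In summed CPM the myocardial list was lower in every mutant than in every wildtype library. The mesenchymal sum was lower in wildtype replicates 2 and 3 than in every mutant library. Neither covariate can thus be fully told apart from the label.

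**Figure D5:**
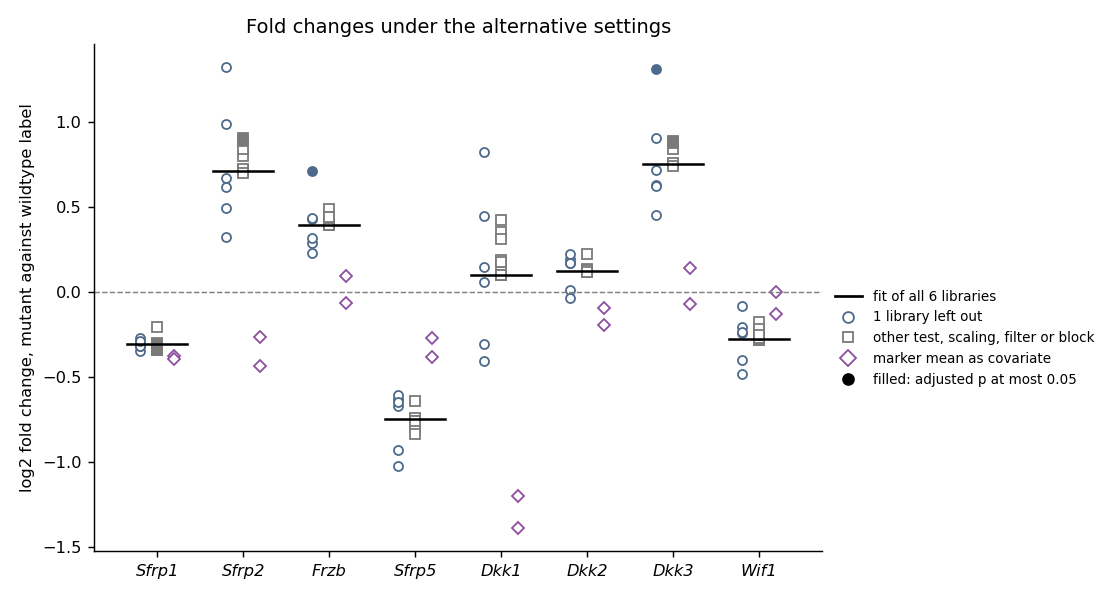
Log2 fold change of each gene (y axis) in the fit of all 6 libraries (black line), with 1 library left out (circles), under another test, scaling, filter or replicate block (squares) and with a marker mean as covariate (diamonds). Filled symbols pass the 0.05 threshold after adjustment, and the values of *Sfrp1* lie between −0.39 and −0.20.

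The makeup of the antagonist pool was then compared between groups, in 13 quantities made of sums, shares and ratios of FPKM. The summed FPKM of the 8 genes was 348, 234 and 165 in wildtype replicates 1, 2 and 3 and 344, 379 and 240 in mutant replicates 1, 2 and 3, with overlapping groups. *Sfrp1* took between 30.7% and 58.3% of the sum in the wildtype and between 22.1% and 33.5% in the mutant libraries. *Sfrp2* took between 19.8% and 42.3% and between 34.9% and 48.7%, in the same order of groups. The share of *Dkk3* was 23.8%, 17.7% and 16.5% in wildtype replicates 1, 2 and 3, and 26.0%, 26.5% and 27.6% in mutant replicates 1, 2 and 3. Every mutant share lay above every wildtype share (p = 0.1 by two-sided exact permutation, which cannot be smaller here, and 0.433 after Benjamini-Hochberg adjustment over the 13 quantities). The ratio of *Dkk3* to *Sfrp1* in FPKM was 0.775, 0.405 and 0.283 against 1.07, 1.20 and 0.825, also without overlap and with the same p. The ratio of *Sfrp2* to *Dkk3* was between 1.20 and 1.97 in the wildtype and between 1.27 and 1.84 in the mutant libraries. The other 11 quantities overlapped between groups.

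Genes with the pattern most like that of each antagonist over the 6 libraries were found by the root mean square difference of centred log2 levels, among 16648 other genes averaging 1 CPM or more. For *Sfrp2* these were *Fbln5* (0.11), *Ntrk3* (0.13) and *Lrrn1* (0.14), where *Sfrp2* itself deviated from its mean by 0.84 (root mean square, log2). For *Dkk3*, which deviated by 0.67, they were *Thbs1* (0.061), *Cthrc1* (0.067) and *Robo2* (0.073). For *Frzb* (own deviation 0.34) they were *Pde5a*, *Atf7* and *Ugdh*, with differences from 0.038 to 0.054. For *Sfrp1* (0.16) they were *Gm12734*, *Magoh* and *Actr6*, from 0.024 to 0.040. For *Sfrp5* (0.39) they were *Atp5l2-ps*, *Atp5k* and *Ndufa4*, from 0.065 to 0.070. *Dkk2* (0.19) was matched by *Fndc5*, *Rab2b* and *Trim12c* and *Wif1* (0.28) by *Map2k3os*, *AW551984* and *Esrrg*, with differences from 0.045 to 0.093. With 6 libraries and so many genes, close matches describe these libraries only.

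The rest of the Wnt pathway was read as whole lists. Of 58 genes found in the table, none was called by edgeR's test (0 of 58), and 43 were above 0 and 15 below. Their median log2 fold change was 0.18, and that over all genes tested was 0.011. An unadjusted p under 0.05 was found for 18 higher and 1 lower, against 16.1% of all genes in both directions together. DESeq2's Wald test called 7, all higher, against 2.64% of all genes. Mutant and wildtype values were fully separate for 16 higher and 2 lower, against 10.7% and 8.94% of all genes in those directions. Leaving out wildtype replicate 1, edgeR called 13 of the 58 genes, against 9.45% of all genes tested in that fit. Wildtype replicate 1 is thus the library whose omission most raised the calls, for the antagonists (2 of 8, *Dkk3* and *Frzb*) and for the pathway.

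Among 9 other extracellular Wnt inhibitors 6 were higher and 3 lower, with a median log2 fold change of 0.51. Mutant and wildtype values did not overlap for 3 of the 9, all higher, against 19.6% of all genes and 10.7% in that direction. *Notum*, a secreted enzyme that strips the lipid from Wnt proteins, had 5.13, 1.98 and 2.87 CPM in wildtype replicates 1, 2 and 3 and 8.85, 6.70 and 7.24 CPM in mutant replicates 1, 2 and 3, without overlap. Its log2 fold change was 1.19 (edgeR adjusted p = 0.183, and 0.00913 by DESeq2's Wald test). *Apcdd1*, a membrane-bound Wnt inhibitor, had 44.8 ± 20.4 CPM (SD, n = 3) in the wildtype and 82.8 ± 10.7 CPM (SD, n = 3) in the mutant libraries, without overlap (log2 fold change 0.88, edgeR adjusted p = 0.195). *Igfbp4*, the most abundant of this list, had 293 ± 34.6 and 277 ± 6.23 CPM, with overlapping groups.

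Of the 4 membrane partners of the antagonists, *Lrp5* had 72.0, 72.2 and 64.5 CPM in wildtype replicates 1, 2 and 3 and 93.8, 96.7 and 78.8 CPM in mutant replicates 1, 2 and 3. Those groups did not overlap, as for 10.7% of all genes in that direction, with a log2 fold change of 0.37 (edgeR adjusted p = 0.197). *Kremen1*, a Dkk receptor, had 104 ± 9.91 and 95.9 ± 2.84 CPM (SD, n = 3) in wildtype and mutant libraries. *Kremen2* had 4, 47 and 1 counts in wildtype replicates 1, 2 and 3 and 1, 1 and 3 counts in the mutant libraries, all at or under the floor there, so no fold change is given. It is the gene with an unadjusted p under 0.05 in the lower direction, and its level rested on wildtype replicate 2.

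Of 13 Wnt ligands 11 were higher, with a median log2 fold change of 0.19. *Wnt16* and *Wnt9b* had the smallest p of these (log2 fold changes 0.77 and 0.82), and *Wnt5a* was the most abundant (66.6 ± 17.7 and 75.1 ± 15.1 CPM in wildtype and mutant, SD, n = 3). Of 14 Frizzled and other receptors 9 were higher (median 0.14). *Fzd10* and *Fzd7* had log2 fold changes of 0.77 and 0.54, and *Ptk7*, the most abundant, 0.27. For *Porcn* and *Wls*, which prepare Wnt proteins for secretion, the values were 0.48 and 0.015. In the R-spondin axis, which controls the turnover of Frizzled receptors, 6 of 8 were higher (median 0.21), with *Rnf43* at 1.23, *Lgr5* at 1.49 and *Lgr4*, the most abundant, at −0.24. *Lgr5* was rare, with 23, 10 and 6 counts in the wildtype and 45, 22 and 38 in the mutant libraries (edgeR adjusted p = 0.217). *Rnf43* averaged 1.27 and 3.02 CPM in wildtype and mutant (edgeR adjusted p = 0.194). Of 8 beta-catenin target genes 7 were higher (median 0.39), with *Axin2* at 0.74, *Lef1* at 0.87 and *Ccnd1*, the most abundant, at −0.059. Over all genes tested the median log2 fold change was 0.011. In all of these lists 0 genes passed edgeR's test. DESeq2's Wald test called 2 ligands, 0 receptors, 0 secretion genes, 1 gene of the R-spondin axis and 3 target genes, against 2.64% of all genes.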

How the data were processed

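RNA-Seq was performed on 6 libraries of pooled E13.5 OFTs, 3 labelled mutant and 3 labelled wildtype. Per the labels and methods, the authors prepared strand-preserving libraries after removing ribosomal RNA, aligned paired-end reads of 50 bp to mm10 with TopHat2 (version 2.1.0) and counted reads on exons with GenomicAlignments. The deposited values are raw counts per gene, without normalization. The annotation release and strand setting are not given in the sources used here.

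Genes with more than 5 reads over all libraries were tested with edgeR 4.0.16 in R 4.3.3 (TMM, quasi-likelihood test, Benjamini-Hochberg adjustment, adjusted p at most 0.05). DESeq2 1.42.0 was an alternative. The standard error is the log2 fold change over the root of its F statistic. Single genes were compared by exact permutation of log2 of CPM plus 0.5. FPKM used summed exon lengths of GENCODE M21, which holds all but 54 of the identifiers. Code was tested on simulated counts.

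Members, lists and markers were chosen with earlier results of these data known. Named genes were the 8 members, for each with a mean of at least 1 CPM the 3 genes of most similar pattern, and in each Wnt list every called gene, the 2 with the smallest p and the most abundant one. *Notch1* and *Nos3* checked the labels. Marker lists covered the liver, endoderm, macrophages, neurons, neural crest with glia, blood, epicardium, mesenchyme, vascular smooth muscle, endothelium and myocardium. Floors, standard errors and intervals cover counting and the spread between pooled libraries only.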

Additional observations from a re-analysis of the deposited data

How the results depend on the processing

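Direction and call were kept under all 17 alternatives for *Sfrp5* only (log2 fold change from −1.02 to −0.27). *Sfrp1* kept its direction (−0.39 to −0.20) and was called by DESeq2 (−0.31) and under the replicate block with correction for GC content and length (−0.34). The libraries share only a number: deviations of same-numbered libraries correlated by 0.096, 0.159 and 0.420 over genes, and not every library matched its own number best. With that replicate block, on the numbers of the titles, *Sfrp2* was 0.89 and *Dkk3* 0.89, both called, and 0.90 and 0.88 with the correction added. On the numbers of the descriptions, *Sfrp2* was 0.84 (edgeR adjusted p = 0.275) and *Dkk3* 0.88 (edgeR adjusted p = 0.108), neither called. With the mesenchymal covariate, chosen after the data were seen, *Sfrp2* was −0.43, *Frzb* −0.062, *Dkk1* −1.39, *Dkk2* −0.096 and *Dkk3* −0.069. With the myocardial covariate *Sfrp2* was −0.26, *Dkk1* −1.20, *Dkk2* −0.19 and *Wif1* 0.0032. Settings for overlap and for the block on description numbers were also chosen after the data were seen. With 1 library left out the log2 fold changes ranged from −0.34 to −0.27 (*Sfrp1*), 0.32 to 1.32 (*Sfrp2*), 0.23 to 0.71 (*Frzb*), −1.02 to −0.61 (*Sfrp5*), −0.40 to 0.82 (*Dkk1*), −0.037 (without mutant replicate 2) to 0.22 (*Dkk2*), 0.46 to 1.31 (*Dkk3*) and −0.48 to −0.081 (*Wif1*). The cause of these shifts was not tested.

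Antagonists called were 1 by DESeq2 (against 2.64% of all genes tested) and 2 with the replicate block (against 1577 of 28157 genes). With the block and correction 3 were called (against 2279 of 28157 genes). With 1 library left out 0 to 2 were called, the 2 without wildtype replicate 1 (against 9.45% of all genes tested), and 0 otherwise. All genes called were 742 by DESeq2, 1577 with the replicate block, 2279 with the block and correction, 83 with a replicate block on the numbers of the descriptions, 14 with the mesenchymal covariate, 2 at an adjusted p of at most 0.01, and 1 to 2593 with 1 library left out, the highest without wildtype replicate 1. Other Wnt genes called were 7, 11, 15 and 3 in the first 4 of these settings and 0 to 13 with 1 library left out. Antagonists without overlap between groups numbered 1 to 5 of the 8 with 1 library left out, where 24.4% to 42.7% of all genes had none. They were 5 on omitting wildtype replicate 1 (42.7% of all genes), 4 on omitting mutant replicate 3 (37.4%) and 2 on omitting wildtype replicate 2 (29.2%). By CPM in place of FPKM 4 of the 8 changed place. Scaling by library size only moved the median of all genes to 0.11. Depth limits *Dkk1* most, at 2 to 48 counts per library.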

Other observations

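Summed levels of the marker lists not given above are stated here as ranges over the 3 libraries of each label. The endothelial markers (8 of 8 detected) summed to between 969 and 1266 CPM in the wildtype and between 1068 and 1161 CPM in the mutant libraries. The vascular smooth muscle markers (6 of 6) summed to between 2779 and 3844 and between 3062 and 5591 CPM, and the epicardial markers (7 of 7) to between 216 and 364 and between 233 and 296 CPM. The blood markers (6 of 6) summed to between 2588 and 6810 CPM in the wildtype and between 3327 and 3575 CPM in the mutant libraries. The neural crest and glia markers (5 of 6 analysed here) summed to between 23.6 and 36.4 and between 32.5 and 40.5 CPM, and this list placed the libraries in the order of *Frzb*. Macrophage markers (6 of 6) summed to between 64.4 and 106 and between 72.5 and 88.7 CPM. Endoderm markers (5 of 6 analysed here, *Nkx2-1* and *Foxa2* at 0 in at least 1 library) summed to between 10.7 and 14.1 and between 9.07 and 11.7 CPM. Liver markers (5 of 5, *Serpina1a* at 0 in at least 1 library) summed to between 1.33 and 93.6 and between 1.03 and 4.96 CPM, with the highest sum in wildtype replicate 2. The part of these cell types in the values of the antagonists was not tested, apart from the myocardial and mesenchymal covariates.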
